A study of Mus musculus with 20 samples.

Results

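The genes described here code for the enzymes of central carbon metabolism, namely glucose uptake and glycolysis to lactate (18 genes), the entry of pyruvate into the mitochondrion (7 genes), the pentose phosphate pathway (6 genes), the citrate cycle with the isocitrate and malate dehydrogenases (14 genes), and the malic enzymes with ATP citrate lyase (4 genes). These 49 genes were taken as a list of the enzymes of these pathways and were matched by gene symbol in the GENCODE M21 annotation to the 55487 Ensembl identifiers of the count data. All 49 were found.

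Glycolysis splits glucose to pyruvate in the cytosol, and lactate dehydrogenase turns pyruvate into lactate. Pyruvate dehydrogenase feeds the citrate cycle, which yields reducing power for respiration, whereas the pentose phosphate pathway, the cytosolic malic enzyme and the cytosolic isocitrate dehydrogenase provide NADPH, the electron donor for lipid and steroid synthesis and for antioxidant defence. In the follicle, granulosa cells (GCs) carry out glycolysis and are known to supply pyruvate and lactate to the oocyte, which itself uses glucose poorly.

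GCs were taken from 20 female mice of 2 lines, 5 mice for each combination of line and stage of the estrous cycle. FL1 is the Dummerstorf line bred for high fertility, and ctrl is its unselected counterpart. Both go back to 1 founder population, and no transgene or treatment was used. The mice were 77 ± 5 days old, and the stage (estrus or diestrus) was read from a vaginal smear. From each mouse 7 to 10 of the largest follicles were opened, leaving out the oocyte with its cumulus cells. Each sample was thus meant to hold the pooled GCs of 1 mouse. Libraries were made with a 3′ end kit, by which a transcript yields reads from its 3′ end only, and read counts of different genes can therefore be compared without dividing by length. Levels are given as CPM, the read count of a gene divided by all reads on genes of that mouse and brought to the usual common depth, with libraries scaled by the TMM method over all 20 mice.

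Between 5446576 and 8257041 reads per mouse were counted on genes, and the 49 genes took between 0.499% and 1.15% of them. The highest share belonged to mouse 2 of the FL1 estrus group. The summed level of 8 GC markers was between 5035 and 13677 CPM in the 20 mice, and Inha, the alpha subunit of inhibin, reached at least 2728 CPM in each, whereas Amh, a marker of small growing follicles, did not exceed 13.9 CPM. Markers of other cell types moved with line or stage. The summed level of 5 luteal markers was between 149 and 429 CPM in ctrl mice and between 1126 and 4102 CPM in FL1 mice in estrus, where all 5 had positive log2 fold changes and 2 (Akr1c18 and Lhcgr) were called. In diestrus it was between 239 and 580 CPM in ctrl and between 271 and 2611 CPM in FL1 mice, and none of the 5 was called. Over both stages 3 of the 5 (Akr1c18, Ptgfr and Sfrp4) were called higher in FL1. None of these 5 markers was at 0 in a whole group. In FL1 estrus mice Akr1c18 alone had a median of 2082 CPM, against 2577 CPM for the sum. From these same data the paper lists Lhcgr, Akr1c18 and Sfrp4 in estrus and Ptgfr in diestrus as stronger in FL1 GCs. The sum is therefore no separate measure of luteal cells. Of the immune markers, whose summed level was between 6.01 and 94.5 CPM, Lyz2 was called higher in FL1 over both stages, and all 6 had positive log2 fold changes. All 5 endothelial markers (12.5 to 131 CPM in sum) had positive log2 fold changes between the lines over both stages, none of them called. The 6 oocyte markers summed to between 45.5 and 483 CPM, so that oocyte transcripts were found in every mouse. Red cell markers summed to between 42.4 and 1287 CPM. Over both stages 5 of the 6 oocyte markers and all 3 red cell markers tested had positive log2 fold changes, none of them called. Between the stages in ctrl mice, Fshr of the GC markers and Cyp17a1 of the theca markers were called higher in diestrus. Since whole samples were sequenced, fewer cells of a type and less RNA per cell cannot be told apart.

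In each comparison all genes with enough reads were fitted with edgeR's quasi-likelihood test, the p-values of all of them were adjusted together by the Benjamini-Hochberg procedure, and "called" stands here for an adjusted p of 0.05 or less. FL1 was compared with ctrl in estrus to see which enzymes differ between the lines at the stage around ovulation. In estrus 2 of the 49 genes were called, the cytosolic malic enzyme Me1, which was higher in FL1, and the mitochondrial malic enzyme Me2, which was lower. Of all 13007 genes tested, 0.769% were called. The median log2 fold change of the 49 genes was 0.02, against 0.01 over all genes tested, and 26 were higher and 23 lower in FL1. In diestrus none of the 48 genes tested was called, where 0.248% of all 12886 genes were called. There 7 of the 48 genes and 5.56% of all genes tested had an unadjusted p below 0.05, and DESeq2 called 2 of the 48 (Me2 and Idh3a) and 118 of all 16342 genes it tested. With both stages in 1 fit that adjusts for the stage, only Me2 was called by edgeR among the 49 genes, and 1.21% of all 14938 genes were called. DESeq2 called 5 of the 49 genes in that comparison, namely Gapdh, Idh1, Me1, Me2 and Pfkp, and 438 of all 16340 genes it tested. The lowest-expressed gene of the list, the glucose transporter gene Slc2a3, did not reach the minimum of reads in diestrus. It was between 0 and 6.97 CPM in the 10 diestrus mice.

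**Figure D1:**
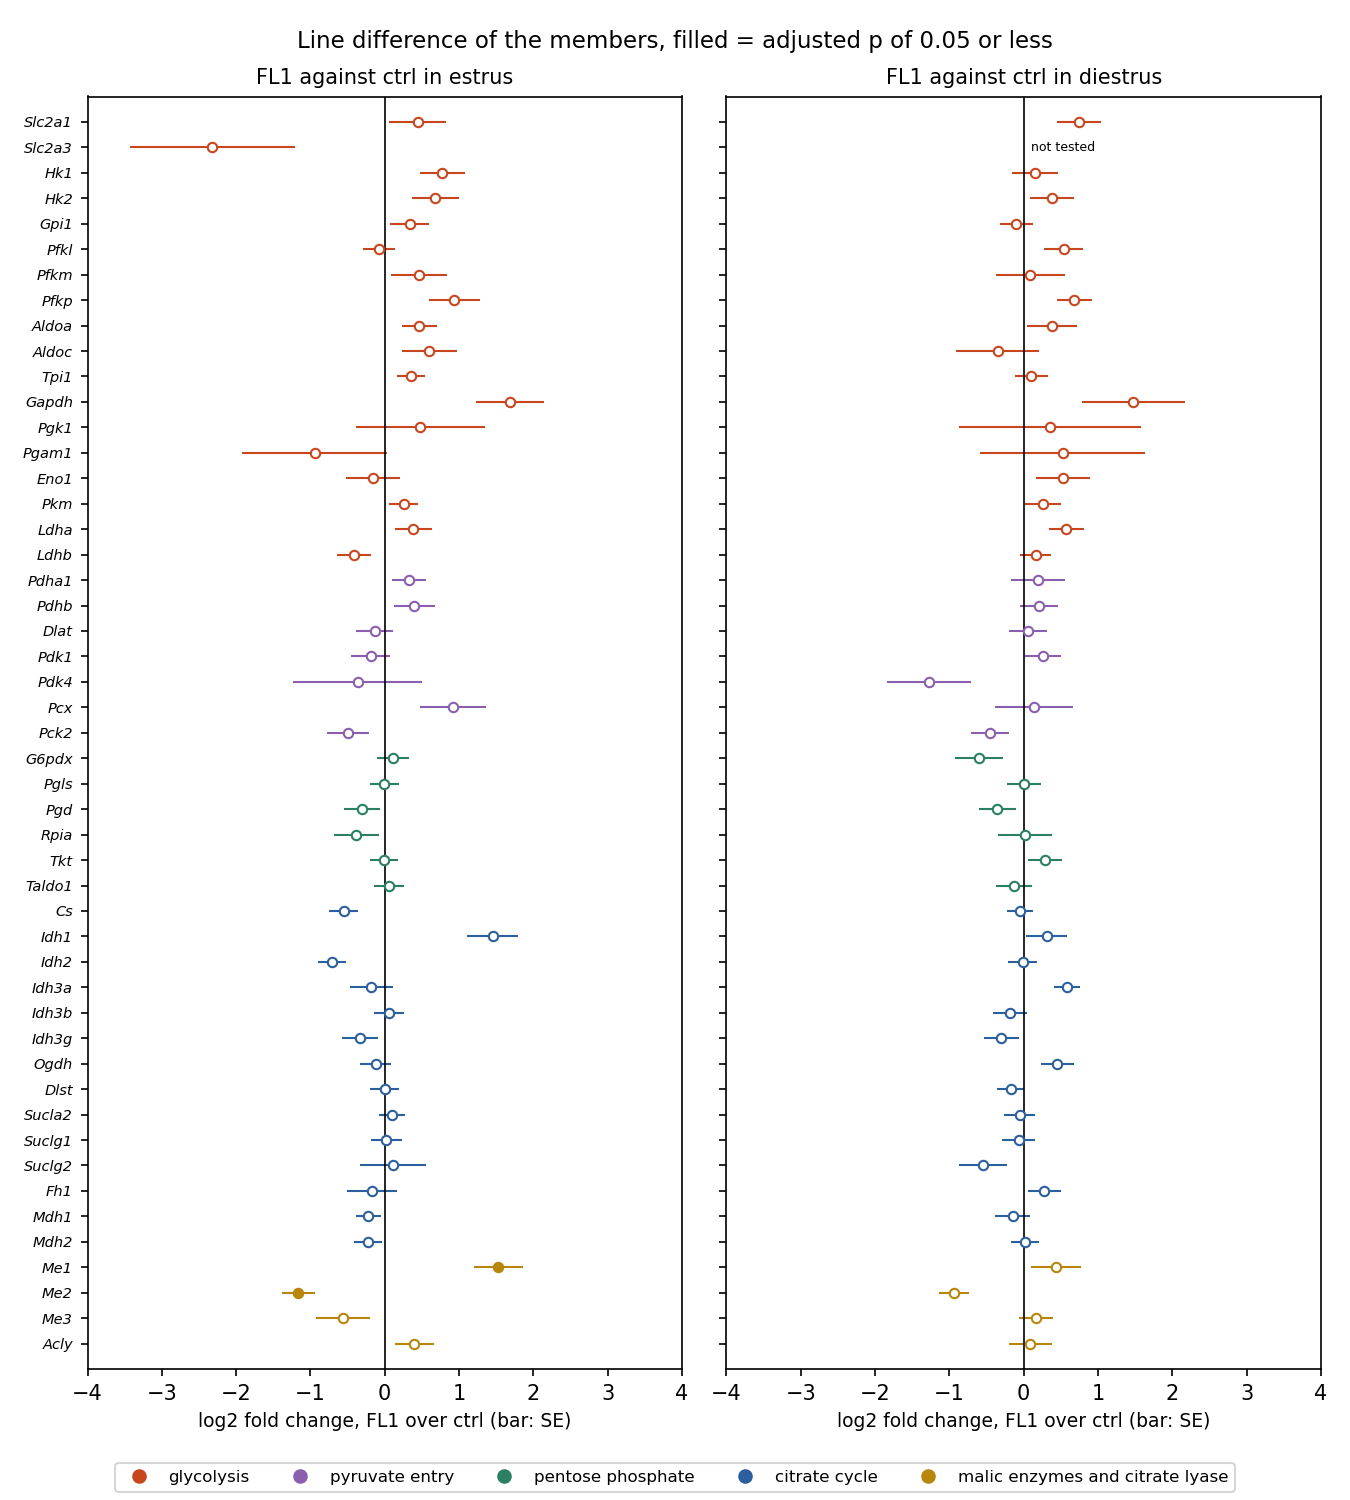
Log2 fold change of FL1 over ctrl for the 49 genes in estrus (left) and the 48 tested in diestrus (right). Bars give the standard error and colours the path. Filled points passed an adjusted p of 0.05 or less, which holds for Me1 (1.53) and Me2 (-1.17) in estrus and for no gene in diestrus, and most points of glycolysis lie right of 0 in both panels.

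The malic enzymes turn malate into pyruvate, Me1 in the cytosol with NADP as acceptor, Me2 and Me3 in the mitochondrion. Me2 (ENSMUSG00000024556) separated the lines at both stages. In estrus Me2 was at 212, 203.5, 301, 432 and 357 CPM in the 5 ctrl mice and at 172, 114.96, 126, 140.3 and 120.2 CPM in the 5 FL1 mice. Its diestrus levels were 366, 348, 303, 270.5 and 306 CPM in ctrl and 201, 143, 137, 125 and 222 CPM in FL1 mice. Every FL1 mouse was below every ctrl mouse of its stage, and the closest mice of the lines were at 203.5 and 172 CPM in estrus and at 270.5 and 222 CPM in diestrus. The level of Me2 in FL1 was 0.446-fold that of ctrl in estrus (log2 fold change -1.17, SE 0.22, adjusted p = 0.0145 from edgeR) and 0.522-fold in diestrus (-0.94, SE 0.20, adjusted p = 0.083). Over both stages the log2 fold change was -1.05 with an SE of 0.15 (adjusted p = 0.000105 from edgeR). With 1 mouse left out at a time, Me2 was called in 10 of 10 fits in estrus, in 0 of 10 in diestrus and in 20 of 20 over both stages. Between the stages the log2 fold change of Me2 was 0.08 in ctrl and 0.30 in FL1, neither of which was called. No near-identical copy and no overlapping gene was found for Me2. The summed luteal markers, which were higher in FL1 in estrus, were at 2611, 1478, 387, 271 and 597 CPM in FL1 diestrus mice 1 to 5 and between 239 and 580 CPM in ctrl, and their part in the level of Me2 was not tested.

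Me1 (ENSMUSG00000032418, chr9:86581371-86695953 in GRCm38, minus strand) differed in the opposite direction and in estrus. There the 5 ctrl mice had 97.4, 160.1, 278, 300.3 and 301 CPM and the 5 FL1 mice 495, 1208, 587, 655 and 350.4 CPM. The groups did not overlap, and mouse 2 of the FL1 group was highest. In diestrus the ctrl mice had 223, 249.5, 184, 46.4 and 106.3 CPM and the FL1 mice 303, 156, 240.3, 189 and 197 CPM, so that the lines overlapped and only mouse 1 of FL1 lay above the ctrl range of that stage. Me1 was 2.89-fold higher in FL1 in estrus (log2 fold change 1.53, SE 0.33, adjusted p = 0.0327 from edgeR). In diestrus the log2 fold change was 0.43 (SE 0.34, adjusted p = 0.9998 from edgeR).

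The call of Me1 in estrus was kept in 5 of the 10 fits without 1 mouse. It was lost without ctrl mouse 1 (adjusted p = 0.0604 from edgeR), ctrl mouse 2 (0.101), ctrl mouse 3 (0.0599), FL1 mouse 1 (0.0506) or FL1 mouse 2 (0.0837), and the log2 fold change stayed between 1.20 and 1.69 over these 10 fits. Its value without FL1 mouse 2 was 1.20 (SE 0.29). Over both stages the log2 fold change was 0.98 (SE 0.28, adjusted p = 0.0804 from edgeR). Of the edgeR fits without 1 mouse, only that without ctrl diestrus mouse 2 called Me1 there (1.11, adjusted p = 0.0336). DESeq2 called Me1 over both stages. The luteal markers moved in the same direction between the lines in estrus, with summed levels of 2577, 1737, 4102, 1126 and 2972 CPM in FL1 mice 1 to 5. The part of the luteal markers in the difference of Me1 was not tested. Me1 has 3 near-identical copies, which held 838 reads against 43498 on Me1 itself over the 20 mice, and with their reads added the log2 fold change in estrus was 1.55 (adjusted p = 0.0324 from edgeR). The genes Gm38230 (same strand) and A330041J22Rik (other strand) overlap Me1, and the strand setting of the counting is not given in the sources used here.

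By group median Me3, the NADP-dependent malic enzyme of mitochondria, was the least abundant of the malic enzymes, but in ctrl diestrus mouse 4 it exceeded Me1. In estrus it was at 43.6, 33.5, 37.3, 37.9 and 18.3 CPM in ctrl and at 47.6, 15.5, 18.7, 13.1 and 20.99 CPM in FL1 mice. The diestrus levels were 41.3, 46.2, 54.2, 48.9 and 77.6 CPM in ctrl and 53.7, 69.1, 55.7, 48.6 and 71.98 CPM in FL1 mice. The lines overlapped at both stages, and Me3 was not called between them. Its log2 fold change was -0.56 (SE 0.37) in estrus and 0.17 (SE 0.23) in diestrus. Without FL1 mouse 1 the estrus value was -0.99 (SE 0.34, adjusted p = 0.290 from edgeR). Acly, ATP citrate lyase, which makes cytosolic acetyl-CoA for lipid synthesis, had log2 fold changes of 0.40 in estrus and 0.09 in diestrus and was not called. Its value was 0.07 in estrus without FL1 mouse 2 and 0.34 in diestrus without ctrl mouse 1.

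**Figure D2:**
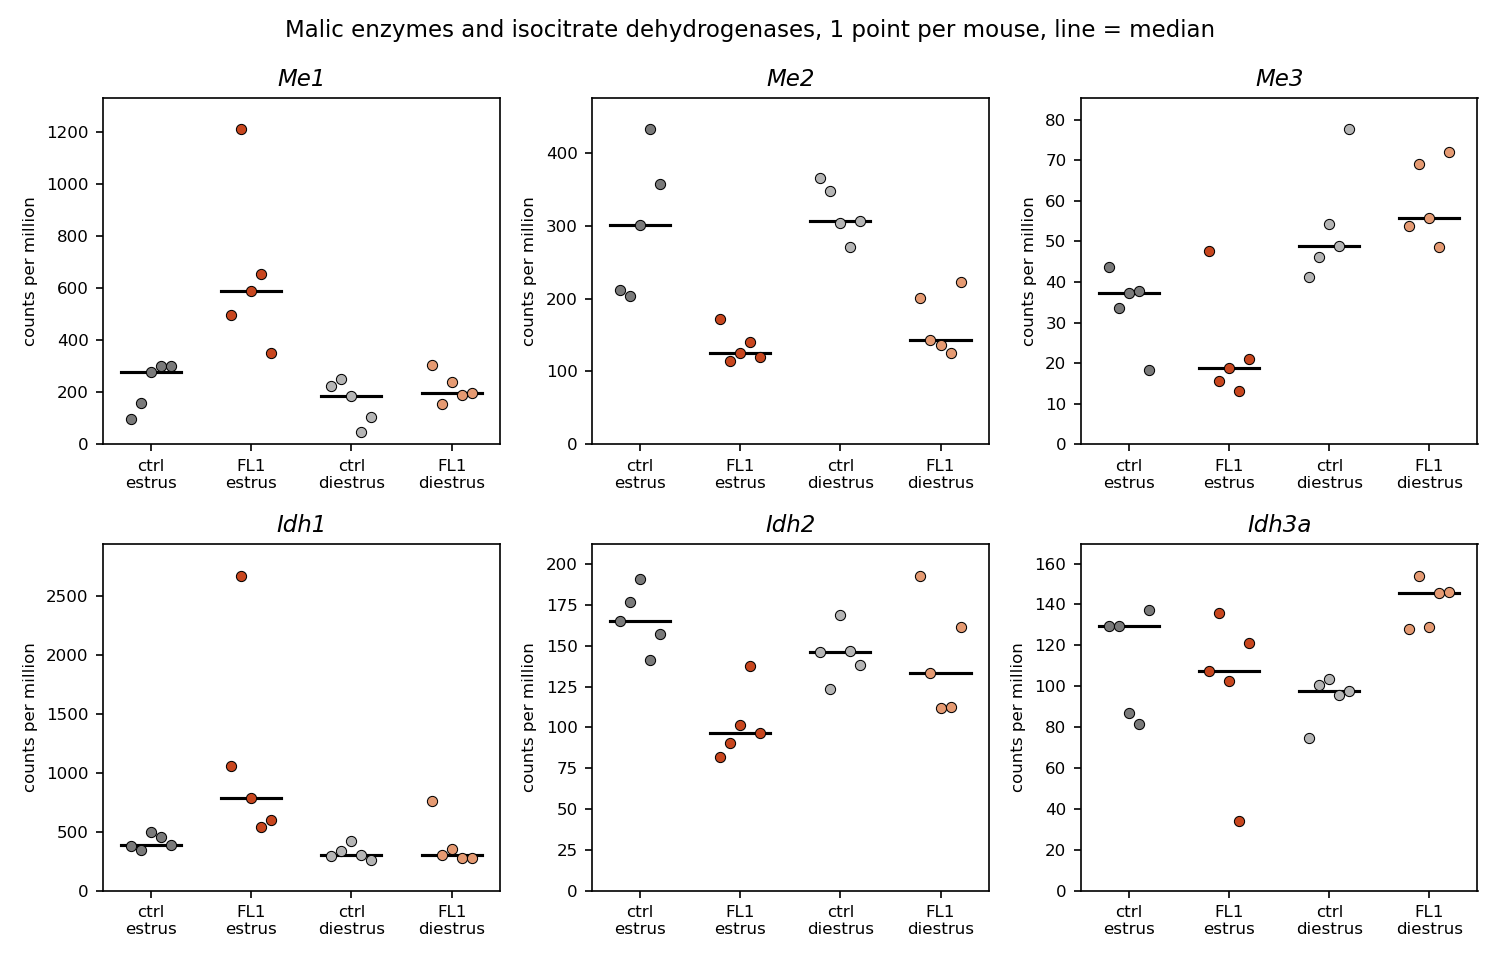
CPM of the 3 malic enzymes and 3 isocitrate dehydrogenase genes in the 20 mice, 1 point per mouse and a line at the median of each group of 5. FL1 mice lie above ctrl in estrus for Me1 (350.4 to 1208 against 97.4 to 301 CPM) and Idh1, and below ctrl at both stages for Me2.

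The makeup of the malic enzyme reads therefore differed between the lines. In estrus Me1 held 27.6%, 40.3%, 45.2%, 39.0% and 44.5% of the reads on the 3 malic enzymes in ctrl mice and 69.3%, 90.3%, 80.3%, 81.0% and 71.3% in FL1 mice. In diestrus its share was 35.4%, 38.8%, 33.9%, 12.7% and 21.7% in ctrl and 54.4%, 42.4%, 55.5%, 52.1% and 40.0% in FL1 mice. The lines did not overlap at either stage, and in diestrus the highest ctrl mouse (38.8%) and the lowest FL1 mouse (40.0%) were close. A share within a mouse does not depend on the scaling of the library. It was computed after the values of the genes had been seen and is given without a test. Me2 held the largest part of these reads in each of the 10 ctrl mice (48.8% to 73.9%), and in FL1 mice it held 8.59% to 24.4% in estrus and 31.6% to 45.3% in diestrus.

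**Figure D3:**
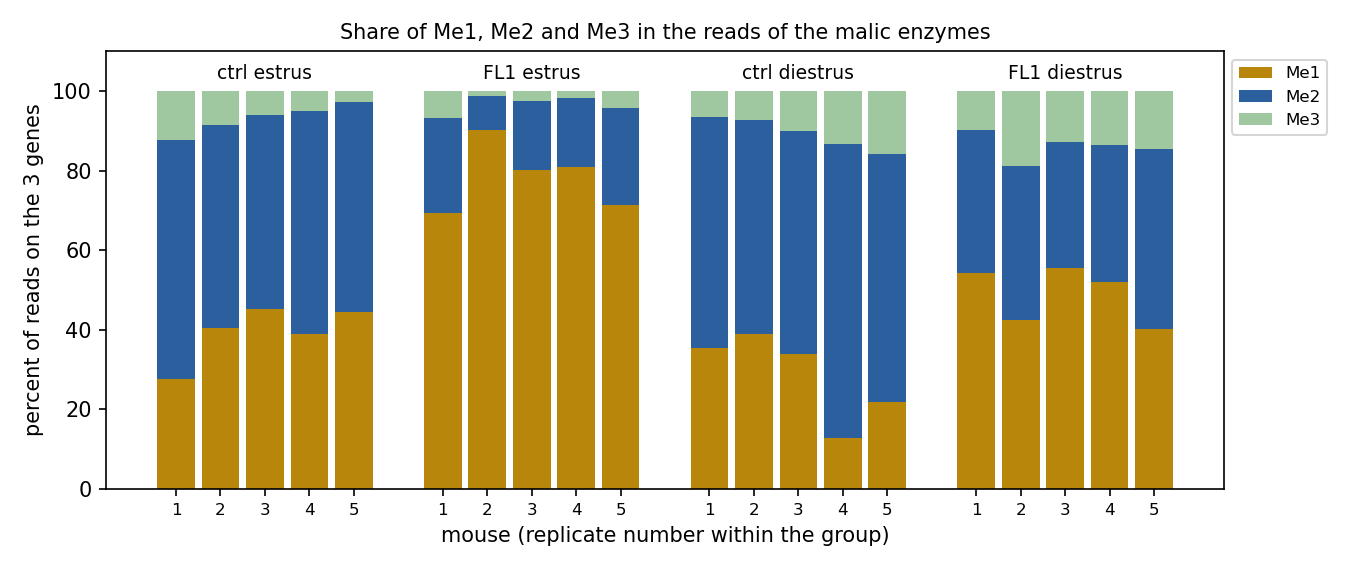
Percent of the reads on the 3 malic enzyme genes that fell on Me1, Me2 and Me3, 1 bar per mouse in the 4 groups of 5. Me1 takes 69.3% to 90.3% in FL1 mice in estrus and 12.7% to 45.2% in ctrl mice of both stages.

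The isocitrate dehydrogenases oxidize isocitrate to 2-oxoglutarate. Idh1 works in the cytosol and in peroxisomes and yields NADPH, Idh2 does so in mitochondria, and Idh3a, Idh3b and Idh3g form the NAD-dependent enzyme of the citrate cycle. Idh1 (ENSMUSG00000025950, chr1:65158616-65186500, minus strand) was at 377, 344, 498, 456 and 388 CPM in ctrl and at 1062, 2676, 788, 536 and 597 CPM in FL1 mice in estrus. All FL1 mice were above all ctrl mice, and mouse 2 of FL1 was far above the next. In diestrus Idh1 was at 295, 334, 421, 298 and 258 CPM in ctrl and at 763, 304, 357, 275 and 278 CPM in FL1 mice, where only mouse 1 of FL1 was outside the range of ctrl. The fold change in estrus was 2.73 (log2 1.45, SE 0.35, adjusted p = 0.0584 from edgeR) and did not pass the threshold, while DESeq2 gave an adjusted p of 0.00352. It was called without FL1 mouse 4 (adjusted p = 0.021 from edgeR) or FL1 mouse 5 (0.0359). Without FL1 mouse 2 the log2 fold change in estrus was 0.85 (SE 0.21, adjusted p = 0.0996 from edgeR). In diestrus it was 0.31 (SE 0.27), and -0.07 without FL1 mouse 1. That mouse also had the highest summed luteal markers of its group (2611 CPM, against 271 to 1478 CPM in the other 4), and FL1 estrus mouse 2 had 1737 CPM, the fourth highest of its group. Their part in the level of Idh1 was not tested.

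Idh2 (ENSMUSG00000030541) differed from Idh1 in direction. In estrus Idh2 was at 165, 177, 191, 141 and 157 CPM in ctrl and at 82.0, 90.6, 101.5, 138 and 96.8 CPM in FL1 mice, without overlap. In diestrus it was between 124 and 169 CPM in ctrl and between 111.6 and 193 CPM in FL1 mice, with overlap. The log2 fold change was -0.71 in estrus (SE 0.19, adjusted p = 0.0946 from edgeR) and -0.01 in diestrus (SE 0.20). It was not called, and with 1 mouse left out at a time it was called in estrus without FL1 mouse 4 (-0.84, adjusted p = 0.0331 from edgeR). As a share of the reads on Idh1 and Idh2, Idh1 held 66.1% to 76.3% in ctrl and 79.6% to 96.7% in FL1 mice in estrus, and 65.1% to 73.0% against 63.3% to 79.8% in diestrus. Gm45203 overlaps Idh2 on the same strand.

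Idh3a (ENSMUSG00000032279), the catalytic subunit of the NAD-dependent enzyme, was at 74.8, 100.4, 103.3, 95.5 and 97.6 CPM in ctrl and at 128, 154, 129, 146 and 146 CPM in FL1 mice in diestrus, so that all FL1 mice were above all ctrl mice. The log2 fold change was 0.59 (SE 0.17, adjusted p = 0.409 from edgeR, 0.0289 from DESeq2). In estrus it was -0.18 (SE 0.29), with mouse 4 of FL1 at 33.9 CPM and the others of both lines between 81.7 and 138 CPM. The other subunits Idh3b and Idh3g overlapped between the lines at both stages. Cs, citrate synthase, which starts the cycle, was between 201 and 281 CPM in ctrl and between 113.2 and 202 CPM in FL1 mice in estrus (-0.55 on the log2 scale, SE 0.19, adjusted p = 0.231 from edgeR).

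Over all 49 genes, 2 genes in estrus (Me1 and Idh1) lay wholly above and 2 (Me2 and Idh2) wholly below ctrl, 4 of 49, while 3.57% of all genes tested did not overlap between the lines. In diestrus this held for 3 of 48 genes (Pfkp and Idh3a above, Me2 below) and for 1.59% of all genes tested. The other genes of the citrate cycle overlapped between the lines at both stages. They include Mdh1 and Mdh2, the cytosolic and mitochondrial malate dehydrogenases, which were among the most abundant genes of the list (274 to 665 CPM and 408 to 833 CPM over the 20 mice), Suclg1 of succinyl-CoA ligase (212 to 450 CPM), and Dlst, Sucla2, Suclg2 and Fh1. Of the 14 genes of the citrate cycle 6 were higher and 8 lower in FL1 in estrus, with a median log2 fold change of -0.14, and 5 were higher and 9 lower in diestrus, with a median of -0.05.

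Me1 and Idh1 belong to the 4 enzymes that make NADPH in the cytosol, together with G6pdx and Pgd of the pentose phosphate pathway. G6pdx, glucose-6-phosphate dehydrogenase, was between 41.9 and 58.9 CPM in ctrl and between 46.9 and 54.4 CPM in FL1 mice in estrus, and its log2 fold change was 0.11 (SE 0.21) in estrus and -0.60 (SE 0.32) in diestrus. Pgd, phosphogluconate dehydrogenase, had log2 fold changes of -0.30 (SE 0.24) and -0.35 (SE 0.25). Of the 4 genes 1 (Me1) was called in estrus and none in diestrus, where 0.769% and 0.248% of all genes tested were called. The remaining genes of the pentose phosphate pathway, Pgls, Rpia, Tkt (transketolase) and Taldo1 (transaldolase), overlapped between the lines at both stages, and none of the 6 genes of the pathway had an unadjusted p below 0.05 in either stage. Their median log2 fold change was -0.01 in estrus and -0.06 in diestrus.

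The promoters of Me1 and Idh1 are shown because these 2 genes lay wholly above ctrl in FL1 mice in estrus, and a stretch of that of G6pdx because it holds the motif that Me1 has. The sequences are RefSeq's for GRCm38.p6, and 46 of the 49 genes matched an entry. Each was searched from 250 bases before to 50 bases after the transcription start, on both strands, for TGACNNNGC, the core of the antioxidant response element that the factor NRF2 binds, for the E-box CACGTG and for the cAMP response element TGACGTCA. The motifs can share bases with each other. The sequences of Me1 and Idh1 run from 250 bases before to 10 bases after the start, 5′ to 3′ on the strand of the gene, and capitals mark a match of TGACNNNGC on either strand.
Me1 promoter, chr9:86695905-86696164, minus strand: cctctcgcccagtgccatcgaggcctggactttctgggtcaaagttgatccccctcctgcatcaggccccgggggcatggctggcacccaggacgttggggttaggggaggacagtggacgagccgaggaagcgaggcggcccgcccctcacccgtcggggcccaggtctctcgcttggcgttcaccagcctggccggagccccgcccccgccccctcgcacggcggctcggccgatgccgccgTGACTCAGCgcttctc
Idh1 promoter, chr1:65186470-65186729, minus strand: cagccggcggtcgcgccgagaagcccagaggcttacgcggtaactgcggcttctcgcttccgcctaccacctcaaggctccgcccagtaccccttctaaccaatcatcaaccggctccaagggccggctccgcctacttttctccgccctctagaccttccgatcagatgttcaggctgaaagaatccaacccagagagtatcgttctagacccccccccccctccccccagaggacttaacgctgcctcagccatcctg
G6pdx promoter, chrX:74428909-74428957, minus strand: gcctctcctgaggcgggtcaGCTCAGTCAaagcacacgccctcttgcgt
The match in Me1 begins 6 bases before the start and that in G6pdx, on the other strand of the gene, 57 bases before it. The starts are those of RefSeq, which lie 39, 21 and 314 bases inside the annotated gene for Me1, Idh1 and G6pdx, and 32 of the 46 starts lie within 100 bases of the annotated gene start. Idh1 has no match in its window. TGACNNNGC occurred in 7 of the 46 promoters (15.2%), which besides Me1 and G6pdx were those of Pdhb, Idh3g, Dlst, Sucla2 and Mdh1, and in 12.4% of all 32851 promoters. CACGTG occurred in 3 (Pfkm, Ldha and Pcx, 6.52% against 7.15% of all) and TGACGTCA in 3 (Ldha, Ogdh and Mdh2, 6.52% against 1.79% of all). A match is a stretch of letters and was not tested for binding.

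In glycolysis no gene was called between the lines at either stage. Of the 18 genes 13 were higher in FL1 in estrus, with a median log2 fold change of 0.42, and 15 of the 17 tested in diestrus, with a median of 0.38, whereas 50.5% and 51.3% of all genes tested had a positive log2 fold change. The counts were 13 and 15 under RLE scaling as well. An unadjusted p below 0.05 was found for 4 genes in estrus (Hk1, Hk2, Pfkp and Gapdh, all higher in FL1) and for 4 in diestrus (Slc2a1, Pfkp, Gapdh and Ldha, all higher in FL1), and for 10.7% and 5.56% of all genes tested. The summed level of the 18 genes was between 1602 and 2346 CPM in ctrl and between 2099.7 and 2940 CPM in FL1 mice in estrus, and between 1043 and 1897 CPM and between 1415 and 2268 CPM in diestrus, so that the lines overlapped. Genes measured in the same mice are not independent replicates, and these counts carry no test. The luteal markers had higher medians in FL1 as well (2577 against 372 CPM in estrus and 597 against 253 CPM in diestrus), and their part in glycolysis was not tested.

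Phosphofructokinase commits glucose to glycolysis, and its platelet form Pfkp (ENSMUSG00000021196) had the lowest p of the path in diestrus. Pfkp was at 38.7, 59.6, 139, 45.0 and 47.9 CPM in ctrl and at 122, 207, 66.8, 151 and 86.2 CPM in FL1 mice in estrus. Its levels in diestrus were 35.05, 69.3, 54.7, 66.95 and 60.8 CPM in ctrl and 124, 75.1, 104.3, 83.0 and 70.5 CPM in FL1 mice. In estrus 1 ctrl mouse (mouse 3) lay among the FL1 mice, and in diestrus the lines did not overlap. The log2 fold change was 0.94 in estrus (SE 0.35, adjusted p = 0.280 from edgeR), 0.68 in diestrus (SE 0.23, adjusted p = 0.586) and 0.81 over both stages (SE 0.22, adjusted p = 0.0724). In estrus Pfkp was called without ctrl mouse 3 (1.40, adjusted p = 0.0459 from edgeR). Over both stages it was called without ctrl estrus mouse 3 (adjusted p = 0.00836 from edgeR) or FL1 estrus mouse 3 (0.0472). The liver form Pfkl and the muscle form Pfkm overlapped between the lines at both stages. Pitrm1 overlaps Pfkp on the other strand.

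Gapdh (ENSMUSG00000057666), glyceraldehyde-3-phosphate dehydrogenase, was at 12.5, 7.91, 6.585, 9.95 and 6.03 CPM in ctrl and at 45.7, 32.8, 8.64, 14.9 and 36.9 CPM in FL1 mice in estrus. The levels in diestrus were 16.5, 4.43, 5.75, 3.75 and 2.53 CPM in ctrl and 16.15, 1.77, 34.3, 8.63 and 30.7 CPM in FL1 mice. The lines overlapped at both stages. These levels stand for a small part of the transcripts, because 184 near-identical copies of Gapdh exist in the annotation and reads that matched several places were left out. The copies held 6281 reads and Gapdh itself 1994. The log2 fold change of Gapdh alone was 1.69 in estrus (SE 0.46, adjusted p = 0.105 from edgeR) and 1.48 in diestrus (SE 0.70, adjusted p = 0.897). Without FL1 mouse 3 Gapdh was called in estrus (1.93, adjusted p = 0.0459 from edgeR), and without ctrl mouse 1 it was 2.14 in diestrus (adjusted p = 0.585). Over both stages it was 1.59 (SE 0.42, adjusted p = 0.0601 from edgeR) and was called without ctrl diestrus mouse 1 (1.90, adjusted p = 0.014), FL1 estrus mouse 3 (0.0423) or 4 (0.0492), or FL1 diestrus mouse 2 (0.0162) or 4 (0.0475). With the reads of the copies added it was 0.77 in estrus (SE 0.26, adjusted p = 0.219 from edgeR) and 0.27 in diestrus (SE 0.30). The levels of Pgk1 (0 to 14.5 CPM, 4 copies) and Pgam1 (0.179 to 12.1 CPM, 3 copies) are uncertain for the same reason.

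By the reads counted, the most abundant genes of the path were Aldoa (aldolase), Pkm (pyruvate kinase), Ldha (lactate dehydrogenase A) and Tpi1 (triosephosphate isomerase). Their group medians were between 163 and 464 CPM. Reads that matched several places were left out, so genes with near-identical copies, such as Gapdh and Eno1, may rank too low. Ldha had a median of 297 CPM in ctrl and 448 CPM in FL1 mice in estrus and of 166 and 267 CPM in diestrus, and its log2 fold change over both stages was 0.48 (SE 0.18, adjusted p = 0.249 from edgeR). Of reads on Ldha and Ldhb, Ldha held a median of 65.3% in ctrl and 77.9% in FL1 mice in estrus and of 59.9% and 67.8% in diestrus, with overlap at both stages. Hk2, the inducible hexokinase, held most of the reads on Hk1 and Hk2 in every mouse (64.1% to 89.98%). Its log2 fold change in estrus was 0.68 (SE 0.32) and 0.23 (SE 0.24) without FL1 mouse 2. Eno1, enolase, which overlapped between the lines at both stages, was between 14.5 and 63.8 CPM over the 20 mice. It has 7 near-identical copies, which held 190 reads against 4352 on Eno1, and its level is uncertain as that of Gapdh is. Slc2a1, the glucose transporter GLUT1, held 69.7% to 100% of the reads on Slc2a1 and Slc2a3.

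A further 55 genes of these pathways, such as other glucose and monocarboxylate carriers, regulators of phosphofructokinase, further pyruvate dehydrogenase kinases and the succinate dehydrogenase subunits, were examined as well. Over both stages 1 of the 44 tested was called between the lines, where 1.21% of all genes tested were called, and none of the 42 tested in estrus and the 41 tested in diestrus was. This was Slc16a3, the lactate exporter MCT4, which was at 69.6, 30.7, 38.8, 28.7 and 88.0 CPM in ctrl and at 107.3, 117, 92.7, 82.7 and 109.6 CPM in FL1 mice in estrus. Levels in diestrus were 30.0, 91.3, 51.0, 36.4 and 28.4 CPM in ctrl and 76.3, 69.3, 58.2, 88.9 and 98.1 CPM in FL1 mice. FL1 mice were mostly above ctrl mice, and 1 ctrl mouse at each stage lay within the range of FL1. The log2 fold change over both stages was 0.86 (SE 0.22, adjusted p = 0.0457 from edgeR), and it was called in 5 of the 20 fits without 1 mouse, those without ctrl estrus mouse 1 or 5, ctrl diestrus mouse 2, FL1 estrus mouse 4 or FL1 diestrus mouse 3. In the others the adjusted p from edgeR was between 0.0525 and 0.0907. In estrus alone it was called without ctrl mouse 5 (1.29, adjusted p = 0.0315 from edgeR).

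Pyruvate enters the citrate cycle through pyruvate dehydrogenase (Pdha1, Pdhb and Dlat), which pyruvate dehydrogenase kinases such as Pdk1 and Pdk4 switch off, or through pyruvate carboxylase (Pcx), while Pck2 is the mitochondrial phosphoenolpyruvate carboxykinase. None of these 7 genes was called between the lines. The median log2 fold change was -0.13 in estrus and 0.14 in diestrus. Pdk4 (ENSMUSG00000019577) was at 11.7, 14.58, 5.89, 14.55 and 3.27 CPM in ctrl and at 18.4, 7.02, 11.5, 0 and 2.05 CPM in FL1 mice in estrus. In diestrus it was at 28.97, 39.9, 16.5, 52.3 and 35.2 CPM in ctrl and at 9.63, 9.82, 3.58, 4.74 and 43.7 CPM in FL1 mice. In diestrus 4 FL1 mice lay below all ctrl mice and mouse 5 lay within their range, and the log2 fold change was -1.27 (SE 0.57, adjusted p = 0.866 from edgeR). Without FL1 mouse 5 it was -2.31 (adjusted p = 0.0557 from edgeR). The 0 in mouse 4 of FL1 in estrus allows a level of up to 0.422 CPM at the depth of this library (3 reads).

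**Figure D4:**
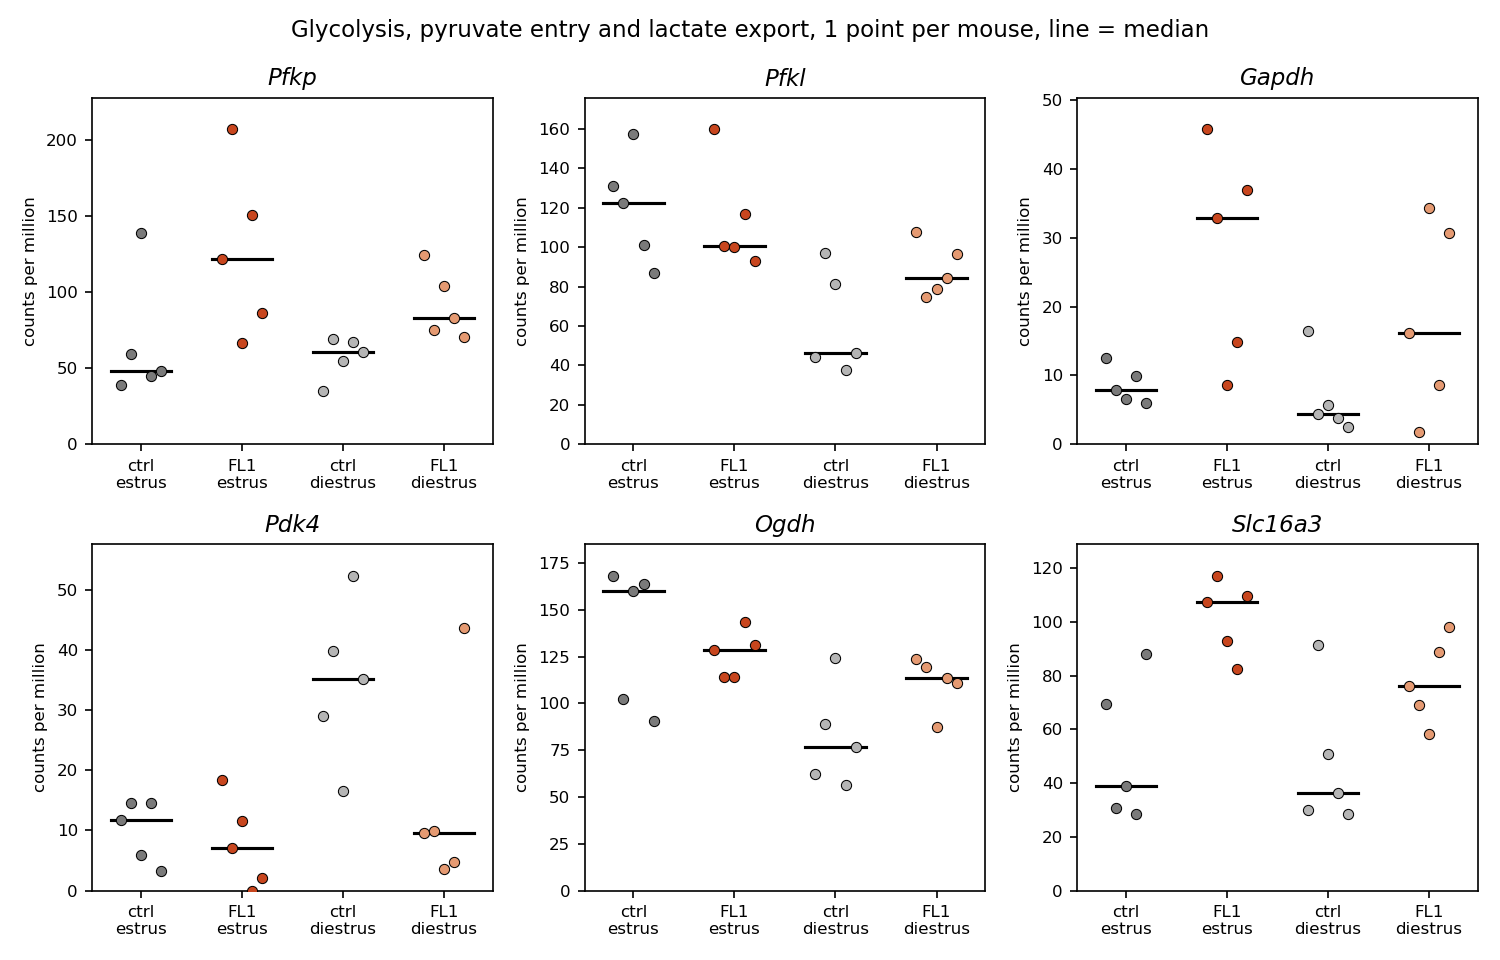
CPM of Pfkp, Pfkl, Gapdh, Pdk4, Ogdh and Slc16a3 in the 20 mice, 1 point per mouse and a line at the median of each group of 5. In ctrl mice Pdk4 is higher in diestrus (16.5 to 52.3 CPM) than in estrus (3.27 to 14.6 CPM), and Slc16a3 is at 58.2 CPM or more in all FL1 mice.

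Diestrus was compared with estrus within each line to see how the enzymes follow the cycle. In ctrl mice none of the 49 genes was called, and 1.36% of all 12850 genes were. An unadjusted p below 0.05 was found for 10 of the 49 genes and for 11.8% of all genes tested. DESeq2 called 2 of the 49 (Pdk4 and Pfkl) and 526 of all 15369 genes it tested. In FL1 mice 1 of 48 genes, Me1, was called, and 0.221% of all 13114 genes were. Me1 was lower in diestrus, with a log2 fold change of -1.60 (SE 0.29, adjusted p = 0.0265 from edgeR), and no FL1 mouse in diestrus (156 to 303 CPM) reached the lowest in estrus (350.4 CPM). This call was lost without FL1 diestrus mouse 2 (adjusted p = 0.0978 from edgeR), mouse 3 (0.0589), mouse 4 (0.0772) or mouse 5 (0.0879), and the log2 fold change was between -1.76 and -1.27 over the 10 fits without 1 mouse. In ctrl mice Me1 had a log2 fold change of -0.49 and was not called. The summed luteal markers of FL1 mice were between 1126 and 4102 CPM in estrus and between 271 and 2611 CPM in diestrus, none of the 5 was called, and their part was not tested.

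Me3 had the largest positive log2 fold change between the stages in FL1 mice (1.37, SE 0.33, adjusted p = 0.0917 from edgeR, 0.0119 from DESeq2), with every diestrus mouse above every estrus mouse. Without FL1 estrus mouse 1, the only one of its group above 20.99 CPM, Me3 was called (log2 fold change 1.81, adjusted p = 0.0105 from edgeR). In ctrl mice its log2 fold change was 0.65 (SE 0.27, adjusted p = 0.337 from edgeR). Idh1 had a log2 fold change of -1.51 in FL1 (SE 0.41, adjusted p = 0.137 from edgeR), which was -0.92 without FL1 estrus mouse 2 and -1.90 without FL1 diestrus mouse 1 (adjusted p = 0.0197), and of -0.36 in ctrl (SE 0.18). As a share of the reads on the 3 malic enzymes, Me1 had a median of 80.3% in estrus and 52.1% in diestrus in FL1, and of 40.3% and 33.9% in ctrl.

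In glycolysis the log2 fold change of diestrus over estrus was negative for all 18 genes in ctrl mice (median -0.41) and for 13 of 17 in FL1 mice (median -0.44), whereas 50.4% and 51.1% of all genes tested had a positive one. None of these genes was called. Unadjusted p-values below 0.05 were found for 5 of 18 genes in ctrl (Hk2, Pfkl, Pkm, Ldha and Ldhb) and for 6 of 17 in FL1 (Hk1, Hk2, Gpi1, Aldoc, Tpi1 and Pkm), and for 11.8% and 9.48% of all genes tested. The directions were the same under RLE scaling (18 of 18 and 13 of 17), and all genes tested had medians of 0.00 and 0.01. The summed level of the 18 genes was between 1602 and 2346 CPM in estrus and between 1043 and 1897 CPM in diestrus in ctrl, and between 2099.7 and 2940 CPM and between 1415 and 2268 CPM in FL1 mice, with overlap in both lines. The summed markers of stroma and smooth muscle also had a lower median in diestrus, with overlap in both lines. Their sum was 633 to 1651 CPM in estrus and 227 to 900.2 CPM in diestrus in ctrl mice. In FL1 mice it was 1020 to 1747 CPM and 155 to 1828 CPM. In ctrl 1 of these 6 markers (Col3a1) was called and none of the 6 had a positive log2 fold change. In FL1 none of the 6 was called and 1 had a positive log2 fold change. Of the endothelial markers, 4 were tested in ctrl and 5 in FL1, with positive log2 fold changes for 0 and 1, and none was called. The part of these cells in the differences of glycolysis was not tested.

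**Figure D5:**
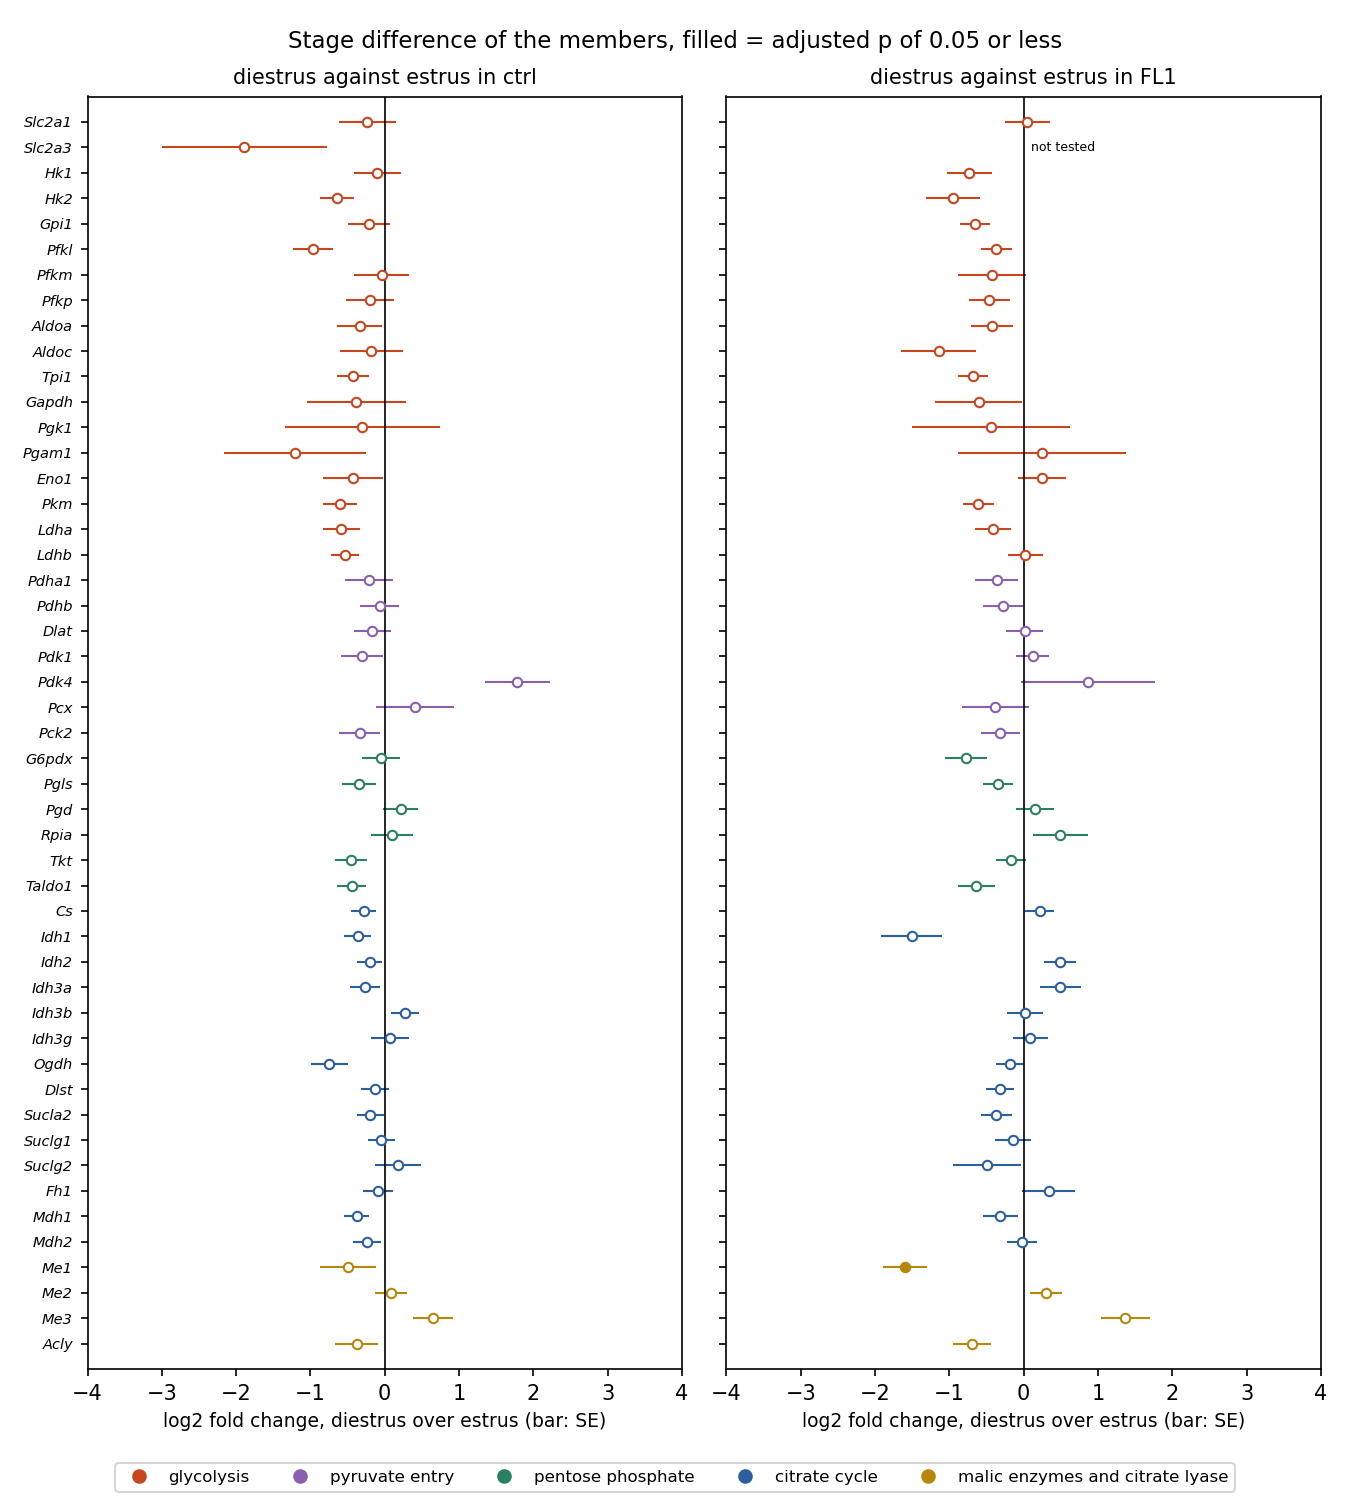
Log2 fold change of diestrus over estrus for the 49 genes in ctrl mice (left) and the 48 tested in FL1 mice (right). Bars give the standard error and colours the path. All 18 glycolysis genes lie left of 0 in ctrl and 13 of 17 in FL1 mice, and Me1 in FL1 (-1.60) is the only filled point, which marks an adjusted p of 0.05 or less.

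Among single genes of ctrl mice, Pfkl, the liver form of phosphofructokinase (ENSMUSG00000020277), was at 131, 122, 157, 101.3 and 86.8 CPM in estrus and at 44.3, 97.2, 81.1, 37.7 and 46.5 CPM in diestrus, where 4 of 5 mice lay below all estrus mice and mouse 2 within their range. Its log2 fold change was -0.96 (SE 0.27, adjusted p = 0.0985 from edgeR) and -0.37 in FL1 (SE 0.21). Without ctrl diestrus mouse 2 it was called (-1.18, adjusted p = 0.0333 from edgeR). Pdk4 did not overlap between the stages in ctrl, with a log2 fold change of 1.79 (SE 0.44, adjusted p = 0.0551 from edgeR, 0.00535 from DESeq2), and of 0.87 in FL1 (SE 0.90), which was -0.16 without FL1 diestrus mouse 5. Pdk1 held 71.6% to 95.3% of the reads on Pdk1 and Pdk4 in estrus and 46.6% to 65.8% in diestrus in ctrl, without overlap, and 70.7% to 100% and 50.9% to 93.5% in FL1. Ogdh, a subunit of 2-oxoglutarate dehydrogenase (ENSMUSG00000020456), was at 168, 102.4, 160.2, 164 and 90.6 CPM in estrus and at 62.2, 88.9, 124, 56.6 and 76.9 CPM in diestrus in ctrl, with overlap (log2 fold change -0.74, SE 0.25, adjusted p = 0.182 from edgeR). In FL1 mice Ogdh was between 114.1 and 144 CPM in estrus and between 87.4 and 124 CPM in diestrus, also with overlap.

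In ctrl mice 1 of the 49 genes (Pdk4, above) did not overlap between the stages, while 3.67% of all genes tested did not. In FL1 mice 5 of 48 did not (Me3 above, and Gpi1, Tpi1, G6pdx and Me1 below), while 2.42% of all genes tested did not. Tpi1 was between 270.5 and 387 CPM in estrus and between 149 and 234 CPM in diestrus in FL1 mice (log2 fold change -0.69, SE 0.20, adjusted p = 0.185 from edgeR), and DESeq2 called it (adjusted p = 0.0311). Gpi1, glucose-6-phosphate isomerase, had a log2 fold change of -0.66 (SE 0.20, adjusted p = 0.210) and G6pdx of -0.77 (SE 0.28, adjusted p = 0.337) in FL1, both from edgeR.

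Whether the line difference itself changed with the stage was tested by the interaction of line and stage in all 20 mice. None of the 49 genes was called by edgeR, as was none of all 14938 genes (0%). Over all genes 710 had an unadjusted p below 0.05 and DESeq2 called 1. Among the 49 genes 4 had an unadjusted p below 0.05, and DESeq2 called none. These were Idh2 (0.69, SE 0.27, adjusted p = 0.982 from edgeR), Idh1 (-1.15, SE 0.47, adjusted p = 0.999), Me1 (-1.10, SE 0.51, adjusted p = 0.9998) and Idh3a (0.76, SE 0.35, adjusted p = 0.9998), where the value is the log2 fold change of FL1 over ctrl in diestrus minus that in estrus. Without FL1 estrus mouse 2 the values of Idh1 and Me1 were -0.55 and -0.77. For Me2 the interaction was 0.22 (SE 0.30). The Me1 calls in estrus and in FL1 mice are thus not shown to be particular to that stage or line.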

How the data were processed

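RNA of GCs was sequenced from 20 mice (5 per line and stage). The authors deposited raw read counts per Ensembl gene for each mouse, which they had made by alignment with STAR to GRCm38. Reads that matched several places (23.2% to 32.8% of all reads per mouse) were left out. They are part of the rows that name no gene, 41.6% to 51.1% of the total. Those rows were left out here of library sizes and tests. The strand setting of the counting is not given in the sources used here. Groups come from the labels.

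Counts were fitted with edgeR 4.0.16 in R 4.3.3 (TMM, filterByExpr with a minimum count of 10, a total of 15 and a share of 0.7, quasi-likelihood test). The SE of a log2 fold change was taken as its size divided by the square root of F. The study's methods use DESeq2, which was run as an alternative (version 1.42.0). The adjusted p-value threshold was 0.05. The p-values set a difference against the spread between these mice. Each stage and each line was fitted on its own 10 mice, and the comparison over both stages and the interaction on all 20. The fitting was tested on simulated data with known changes.

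The 49 genes and the lists were chosen with earlier results of these data known. Values per mouse are given for genes called in any comparison, for Gapdh, Me1, Me2 and Idh1, for the 3 genes with the lowest p in each comparison and for those that do not overlap between the lines. The isoform shares and values of genes outside this rule were chosen after they had been seen. For Aldoa, with 2 identifiers, the one with more reads was used. Near-identical copies were sought with BLAST 2.17.0 (at least 90% identity over 200 bases and 50% of the transcript). Other settings were another test, RLE scaling, no filter, robust estimation, the replicate number as a block, pooled copies, all mice in 1 fit and each mouse left out. Tables and plots were made with Python 3.11.15, pandas 2.3.3 and Matplotlib 3.10.9.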

Additional observations from a re-analysis of the deposited data

Results flagged for a closer look

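Among the 11 genes given by mouse, 44 groups of 5 mice were examined for 1 mouse that stood far from the other 4. Of these, 7 such groups were found, with 6 different mice. The cutoff passes about 1 in 20 groups of normally distributed values. The genes were picked partly by their values, so that rate need not hold here, and the rate over all genes was not measured. Idh1 was at 2676 CPM in FL1 estrus mouse 2, with the next mouse at 1062 CPM, and at 762.8 CPM in FL1 diestrus mouse 1, with the next at 357 CPM. Me3 was at 47.62 CPM in FL1 estrus mouse 1, with the next at 20.99 CPM. Pfkp was at 138.7 CPM in ctrl estrus mouse 3, with the next at 59.6 CPM. In ctrl diestrus mouse 1 Gapdh was at 16.45 CPM, with the next at 5.75 CPM, and Idh3a was lowest at 74.75 CPM, with the next at 95.5 CPM. Pdk4 was at 43.7 CPM in FL1 diestrus mouse 5, with the next at 9.82 CPM. The fits without FL1 estrus mouse 2, FL1 diestrus mouse 1, FL1 estrus mouse 1, ctrl estrus mouse 3, FL1 diestrus mouse 5 and, for Gapdh, ctrl diestrus mouse 1 are given with these genes above. Without that last mouse the log2 fold change of Idh3a in diestrus was 0.51 in place of 0.59. No cause was tested.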

How the results depend on the processing

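DESeq2 called 5 of the genes in estrus (Gapdh, Idh1, Idh2, Me1 and Me2) in place of 2, 2 in diestrus in place of 0, 5 over both stages in place of 1, 2 between the stages in ctrl in place of 0, and 3 in FL1 (Me1, Me3 and Tpi1) in place of 1. With no filter on low counts 5 were called in estrus (Gapdh, Idh1, Me1, Me2 and Pfkp), 1 in diestrus (Me2), 5 over both stages, 2 between the stages in ctrl (Pdk4 and Pfkl) and 4 in FL1 (Hk2, Idh1, Me1 and Me3). Robust estimation called 1 in estrus (Me2) and 1 between the stages in ctrl (Pdk4). With all mice in 1 fit 3 were called in estrus (Idh1, Me1 and Me2), 1 was called between the stages in ctrl (Pfkl) and 3 in FL1 (Idh1, Me1 and Me3). RLE scaling and pooled copies gave the same counts in every comparison. With each mouse left out in turn, between 1 and 4 genes were called in estrus, 0 in diestrus, between 1 and 3 over both stages, between 0 and 1 between the stages in ctrl and between 0 and 2 in FL1. No gene of the list had an interaction called in any of the 26 alternatives. The cause of these differences was not tested.

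The replicate numbers name different mice in each group, and the deviations of same-numbered mice from their group means correlated between -0.116 and 0.117, so that the samples were not taken as paired. With the replicate block 0 genes were called in estrus, where the values of Me2 were -1.12 on the log2 scale and 0.0564 as adjusted p (edgeR) and Me1 had an adjusted p of 0.0762, 0 in diestrus, 1 over both stages, 2 between the stages in ctrl (Pdk4 and Pfkl) and 0 in FL1.

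Over all genes tested DESeq2 called 425 in place of 100 in estrus, 118 in place of 32 in diestrus, 438 in place of 181 over both stages, 526 in place of 175 between the stages in ctrl and 265 in place of 29 in FL1. The fit with no filter called 373 in estrus, 319 over both stages, 348 between the stages in ctrl, 299 in FL1 and 6 for the interaction, and in diestrus it called 3.34 times as many genes as the fit with the filter (32). The replicate block gave 58 in estrus and 13 in diestrus, and all mice in 1 fit gave 65 between the stages in FL1. For 23 log2 fold changes of the genes given by mouse, each in the comparison it was named for, 445 values under the alternatives were computed. Of these 391 kept their direction and their side of the threshold, 40 passed it newly, 13 no longer passed it and 1 reversed, which was that of Idh1 in diestrus without FL1 mouse 1 (-0.073, against 0.42 at most without 1 mouse). Others were not followed in this way, among them Pdk4 between the stages in FL1, which was -0.16 without FL1 diestrus mouse 5 in place of 0.87. The number of the 49 genes with a positive log2 fold change was between 24 and 28 in estrus, 25 and 32 in diestrus, 8 and 12 between the stages in ctrl and 13 and 17 in FL1. Depth limits Slc2a3, Pgk1, Pgam1, Gapdh and Pdk4, which had fewer than 15 reads in at least 1 mouse.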
